A study of Mus musculus with 2 samples.

Results

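The cytosolic ribosomal protein genes encode the protein part of the ribosome. They were taken here as the mouse symbols that start with Rpl (large subunit) or Rps (small subunit) followed by a digit, together with Rplp0, Rplp1, Rplp2 and Rpsa, without the Rps6k kinases and without symbols marked as pseudogenes. The rule found 86 genes of 31017 symbols, 52 of the large and 34 of the small subunit. Of these, 77 are the standard subunit genes and 9 carry names of paralogs or of a binding partner (Rpl3l, Rpl7l1, Rpl10l, Rpl22l1, Rpl36al, Rpl39l, Rps27l, Rps27rt and Rps19bp1). All 86 had at least 1 unique molecular identifier (UMI, a tag that counts 1 captured RNA molecule) in the cells kept, and 83 had 100 or more in each tumour. The others were Rpl3l with 17 and 281 UMIs (PyMT-M and PyMT-N), Rpl39l with 13 and 16, and Rpl10l with 3 and 0.

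The genes were measured in immune cells of mouse mammary tumours grown from the PyMT-M or the PyMT-N tumour cell line. Cells of a line were injected into the mammary gland, and 4 weeks later, when tumours measured 0.7 to 1 cm across, viable cells were sorted for CD45, which all white blood cells carry. The labels do not say what M and N stand for, and host strain and age are not given in the sources used here. There was 1 library of each line, made by a droplet assay that counts RNAs from their 5′ ends, so no difference below has a replicate check and no p-value is given. After filters 6916 PyMT-M cells with 39158833 UMIs (median 4966 per cell) and 4792 PyMT-N cells with 13967237 UMIs (median 1923) were left. The libraries share 60 barcodes, and leaving those cells out left each log2 ratio of shares given below within its counting interval. Intervals in square brackets are 95% intervals that cover counting error only, not variation between tumours. A level in CPM is a gene's UMIs per 1000000 UMIs of the pooled cells of a class, and the ribosomal share is the percent of a class's UMIs that come from the 86 genes.

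A ribosome is built from ribosomal RNA and about equal copies of each ribosomal protein, with a small subunit that reads the messenger RNA and a large subunit that joins amino acids. In vertebrates most ribosomal protein mRNAs begin with a run of pyrimidines at the 5′ end, the 5′ terminal oligopyrimidine (TOP) motif, by which growth signals through mTOR and LARP1 control their translation together. Resting lymphocytes hold much of their mRNA as such messages, whereas mature neutrophils are short-lived cells that carry little RNA and few ribosomes.

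Start-site sequence is shown for members whose levels stand out in the comparisons below, because the TOP motif is the feature the family is known to share. RefSeq promoter entries (GRCm38.p6) matched 66 of the 86 members. Within 50 bases on either side of the annotated start, CTTTCC, the variant CTTTTC or the shifted form CCTTTC (the 3 can overlap) occurred on the sense strand in 31 of 66 members, 47.0%, and in 10.4% of all 27025 promoters of the same length. On the antisense strand the values were 4 of 66, 6.06%, and 9.53%. Capitals mark the motif in windows of 30 bases, written 5′ to 3′ on the gene's strand, and windows without capitals hold none of the 3.
Rps27: ccgctttcgctcCTTTCCggcggtgacgac
Rpl38: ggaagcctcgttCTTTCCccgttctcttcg
Rpl35: gtcggccccgccCTTTCCtctttctctcga
Rpl12: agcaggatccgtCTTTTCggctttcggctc
Rps9: gccttgtctctctttgtctcgggcctgagt
Rps28: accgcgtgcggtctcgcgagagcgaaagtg
Rps27l: ctcctccccgccgcctctatcccggaagtt
Rpl22l1: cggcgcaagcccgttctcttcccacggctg
The windows lie at chr3:90213630-90213659 (minus strand) for Rps27, chr11:114668568-114668597 (plus) for Rpl38, chr2:39005119-39005148 (minus) for Rpl35, chr2:32961702-32961731 (plus) for Rpl12, chr7:3704029-3704058 (plus) for Rps9, chr17:33824545-33824574 (minus) for Rps28, chr9:66946074-66946103 (plus) for Rps27l and chr3:28805496-28805525 (plus) for Rpl22l1. A match is a description of the letters, not evidence of a start used in these cells. The 3 strings cover only part of what counts as a TOP motif, so a member without a match need not lack it. A split by match therefore does not test the motif. Members with and without a match had like levels of change. Between neutrophil- and macrophage-like cells of PyMT-N, for example, the median log2 ratio was -1.75 over 30 members with a match and -1.63 over 34 without.

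The 5 members with the highest mean level over the cell classes were Rpl41, a very small large-subunit protein, Rps24, Rpl13, Rplp0, the base of the ribosomal stalk, and Rpsa, a small-subunit protein also known as the laminin receptor. Rpl41 stood at 2629, 3973 and 8262 CPM in neutrophil-, macrophage- and T cell-like cells of PyMT-M and at 5832, 12932 and 15646 CPM in those of PyMT-N. Rps24 stood at 996, 3449 and 9611 CPM in PyMT-M and at 1296, 6043 and 11442 CPM in PyMT-N. In both tumours each of these 5 genes was lowest in neutrophil-like and highest in T cell-like cells among these 3 classes. Levels were not divided by transcript length, since the method counts 5′ ends. Rpl13a, at a mean of 113 CPM, was low for a standard subunit gene. It has many near-identical processed copies in the genome and its counts are uncertain, as are those of Rps27rt, a retrocopy of Rps27.

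Cells were placed in classes by UMIs of marker genes that include no ribosomal gene, and a class is called "-like" because it rests on these markers alone. In both tumours the ribosomal share rose from neutrophil-like cells over myeloid cells to lymphocytes, as the plot of shares by cell class shows. Neutrophil-like cells, recognised by genes such as S100a8 and Csf3r, had a share of 4.86% [4.71 to 5.02] in PyMT-M (45 cells) and 7.10% [7.08 to 7.12] in PyMT-N (3171 cells). T cell-like cells had 28.0% in PyMT-M (574 cells) and 32.8% in PyMT-N (160 cells). NK cell-like cells had 27.1% (408 cells) and 30.3% (31 cells), and B cell-like cells 30.3% (47 cells) and 35.9% (56 cells). Dendritic cell-like cells had 21.9% (41 cells) and 21.0% (13 cells). In pooled shares macrophage- and monocyte-like cells changed places between the tumours, though by only 1.08-fold in PyMT-N. Their single cells overlapped there, with quartiles of 17.3% and 26.3% for macrophage-like and 18.0% and 23.4% for monocyte-like cells. In PyMT-M the share was 11.3% in 5094 macrophage-like cells and 17.2% in 175 monocyte-like cells, whereas in PyMT-N it was 22.2% in 675 macrophage-like cells and 20.6% in 237 monocyte-like cells. Over all cells kept the shares were 14.6% and 15.8%, close to each other although the classes differed, since neutrophil-like cells made up most of PyMT-N and macrophage-like cells most of PyMT-M. Neutrophil- and macrophage-like cells were well separated by markers: in PyMT-N the 10 neutrophil markers summed to 98735 CPM in neutrophil-like and 258 CPM in macrophage-like cells, and the 10 macrophage markers to 275 and 21844 CPM. Monocyte-like cells were less distinct. They held macrophage markers at 4086 CPM beside 4400 CPM of monocyte markers in PyMT-M, and at 2906 beside 5072 CPM in PyMT-N. The 45 neutrophil-like cells of PyMT-M held macrophage markers at 650 CPM beside 83483 CPM of their own.

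**Figure D1:**
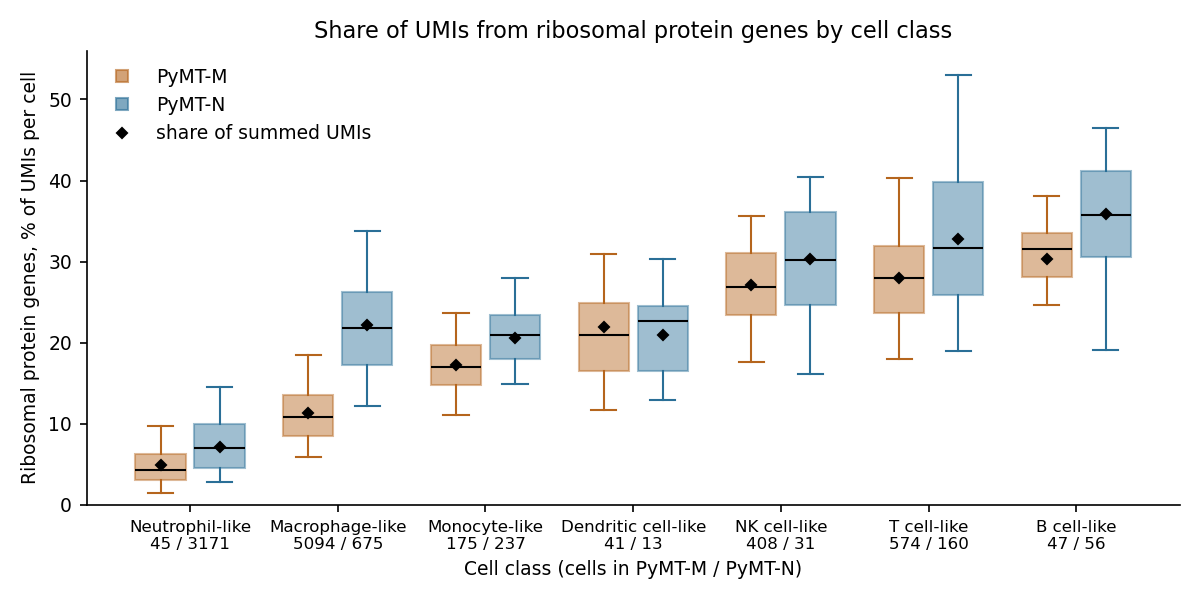
Percent of UMIs from the 86 ribosomal protein genes in single cells by class, PyMT-M (brown) and PyMT-N (blue). Boxes span the quartiles with the median, whiskers the 5th to 95th percentile of cells, and diamonds the share of the summed UMIs. Neutrophil-like cells (4.86% and 7.10%) lay lowest and B cell-like cells (30.3% and 35.9%) highest, and macrophage-like cells stood at 11.3% and 22.2%.

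In neutrophil-like cells nearly the whole family was low. In PyMT-N the share of 7.10% stood against 22.2% in macrophage-like cells, a 3.13-fold lower value (log2 ratio -1.64 [-1.65 to -1.64]). Of the 84 members with 100 UMIs over both classes, 78 were lower by 1.5-fold or more, 5 lay within that fold and 1 was higher. Over all 6672 genes counted the same way 32.5% were lower and 28.4% higher by that fold, and the median log2 ratio was -0.06 against -1.69 over the members. Large- and small-subunit members had like medians, -1.77 and -1.71. Per cell the median count of ribosomal protein UMIs was 120 in neutrophil-like and 943 in macrophage-like cells, beside median totals of 1701 and 4615 UMIs.

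The members that fell furthest in PyMT-N neutrophil-like cells included core proteins of both subunits. Rpl3, which lies at the peptidyl transferase centre, was at 117 CPM against 2020 CPM in macrophage-like cells (log2 ratio -4.10). Rpl10a was at 152 against 2222 CPM, Rps4x, the X-linked small-subunit gene, at 386 against 4178 CPM, and Rpl12, a stalk-base protein, at 76.1 against 592 CPM. In PyMT-M the same 3 leading genes were low as well, with Rpl3 at 83.0 against 1357 CPM, Rpl10a at 138 against 1205 CPM and Rps4x at 346 against 2646 CPM, although Rpl3 rested on 6 UMIs there. Over the 77 standard subunit genes the log2 ratio in PyMT-N ran from -4.10 to 0.16, so their messages were not lower by a common factor.

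A few members stood outside the general fall. Rps27, a zinc-finger protein of the small subunit, was at 3104 CPM in neutrophil-like and 2781 CPM in macrophage-like cells of PyMT-N, and at 996 and 899 CPM in those of PyMT-M. Rps9 was at 2662 and 3684 CPM in PyMT-N, and at 2892 and 2473 CPM in the other tumour. Both classes thus held these 2 messages at levels within 1.5-fold of each other in either tumour. Fau is a TOP gene outside the naming rule that encodes a small-subunit protein fused to a ubiquitin-like domain. It was at 11028 CPM in neutrophil-like and 8170 CPM in macrophage-like cells of PyMT-N, and at 6171 and 4714 CPM in PyMT-M. The level in neutrophil-like cells was thus the larger, but by less than 1.5-fold.

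**Figure D2:**
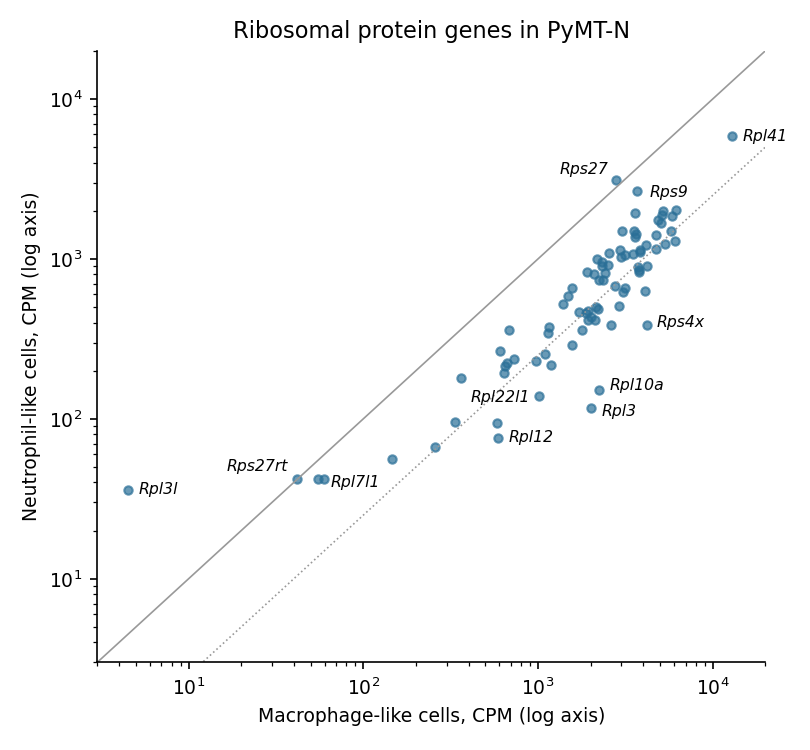
Level of each of 84 ribosomal protein genes in neutrophil-like (y axis) and macrophage-like cells (x axis) of PyMT-N, in CPM on log axes. The solid line marks equal levels and the dotted line 4-fold lower levels in neutrophil-like cells. Rpl3, Rpl10a and Rps4x lie far below the dotted line, whereas Rps27 lies on the solid line and Rpl3l above it.

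In PyMT-M the neutrophil-like share of 4.86% stood against 11.3% in macrophage-like cells (log2 ratio -1.22 [-1.27 to -1.17]), and 73 of 83 members were lower by 1.5-fold and 0 higher. Among all genes 56.7% were lower and 20.8% higher by that fold, and the medians were -1.34 for members and -1.04 for all 9469 genes. The values over all genes rest in part on depth: 1 UMI in the neutrophil-like cells is 13.8 CPM and genes of low level are at 0 there. The 45 neutrophil-like cells of PyMT-M held 72278 UMIs, and Rpl13a and Rps27rt had none, which allows each up to 41.5 CPM.

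Other translation and ribosome assembly genes are set beside the 32.5% of all genes that were lower and the 28.4% that were higher in neutrophil-like cells of PyMT-N. Of the 22 other TOP genes tested, which include translation factors, 20 were lower by 1.5-fold and 0 higher, with a median log2 ratio of -1.52; Eef1a1, which brings transfer RNA to the ribosome, was at 785 against 3729 CPM. Of 29 ribosome biogenesis genes tested 19 were lower and 1 higher (median -0.97). Of 72 mitochondrial ribosome genes 40 were lower and 4 higher (median -0.67), and among these Mrpl52 (1414 against 761 CPM) and Mrpl33 (637 against 308 CPM) were higher. Of 15 growth-control genes 9 were higher and 3 lower. Mxd1, a MYC antagonist known from granulocyte differentiation, was at 796 against 16.8 CPM, and Myc, which drives ribosome synthesis, at 1.42 (9 UMIs) against 53.6 CPM. In PyMT-M Mxd1 was at 789 against 17.8 CPM and Myc was at 45.4 CPM in macrophage-like cells with 0 UMIs in neutrophil-like cells, which allows up to 41.5 CPM.

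Among the neutrophil stages of PyMT-N the share was lowest in cells with Ngp and highest in cells with Siglecf alone. Neutrophil-like cells were divided by Ngp, a secondary granule gene of immature neutrophils (2 or more UMIs), Retnlg, a gene of mature blood-type neutrophils, and Siglecf, which marks neutrophils changed by the tumour. A cell with Ngp was placed in the Ngp stage whatever its Retnlg count. In PyMT-N the Ngp cells held the most Retnlg of all stages, 18895 CPM against 6106 CPM in Retnlg cells, so they were not marked as immature by both genes. In PyMT-N the share was 3.55% [3.49 to 3.62] in 70 Ngp cells, 5.19% [5.16 to 5.21] in 1050 Retnlg cells, 6.42% in 111 cells with both Siglecf and Retnlg, 9.96% [9.89 to 10.0] in 447 Siglecf cells and 8.63% in 1493 cells with none of the 3. The quartiles of single cells were 2.76% and 4.32% for Ngp, 3.56% and 6.64% for Retnlg and 7.83% and 11.8% for Siglecf. Those of Ngp and Retnlg overlapped, whereas those of Siglecf lay above both. The 5th to 95th percentile ranges of all 3 overlapped, at 1.78% to 6.44% for Ngp, 2.40% to 10.9% for Retnlg and 4.79% to 15.7% for Siglecf. In PyMT-M no cell reached the Ngp stage. The share there was 3.33% in 20 Retnlg cells, 5.35% in 16 cells with none of the 3 and 7.86% in 7 Siglecf cells. The Retnlg and Siglecf stages stood in the same order, but 7 cells are fewer than the 10 set beforehand for a PyMT-M stage.

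The share moved by degrees with the marker counts. In PyMT-N it was 8.96% in 1941 cells with 0 Retnlg UMIs, 6.80% at 1 UMI, 5.57% at 4 to 7 UMIs and 3.69% in 86 cells with 64 or more. With Siglecf it ran the other way, from 6.72% in 2606 cells without a UMI to 8.41% at 1 UMI, 9.15% at 2 UMIs and 10.3% in 51 cells with 3 or more. Total UMIs moved with the markers: the median was 1558 without Retnlg and 4093.5 at 64 or more UMIs, and 1684.5 without Siglecf and 2107 at 3 or more. By depth alone the share was 8.46% at 1000 to 1499 UMIs and 4.94% at 5000 or more, and the part of depth in the marker trends was not tested.

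Counted per cell, ribosomal protein messages did not follow the share. The median cell held 163 ribosomal protein UMIs at the Ngp stage, 98 at the Retnlg stage and 165 at the Siglecf stage, whereas median totals were 4772, 2007.5 and 1672 UMIs. S100a8 and S100a9, the abundant cytosolic proteins of neutrophils, took 27.8% of the UMIs at the Ngp stage, 12.7% at the Retnlg stage and 3.33% at the Siglecf stage. With the 20 most abundant other genes of each stage left out, the log2 ratio of shares between the Siglecf and Ngp stages was 0.79 in place of 1.49, and among cells of 1000 to 3000 UMIs, with 12 Ngp cells, it was 1.29. The part of total RNA per cell in these differences was not tested.

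**Figure D3:**
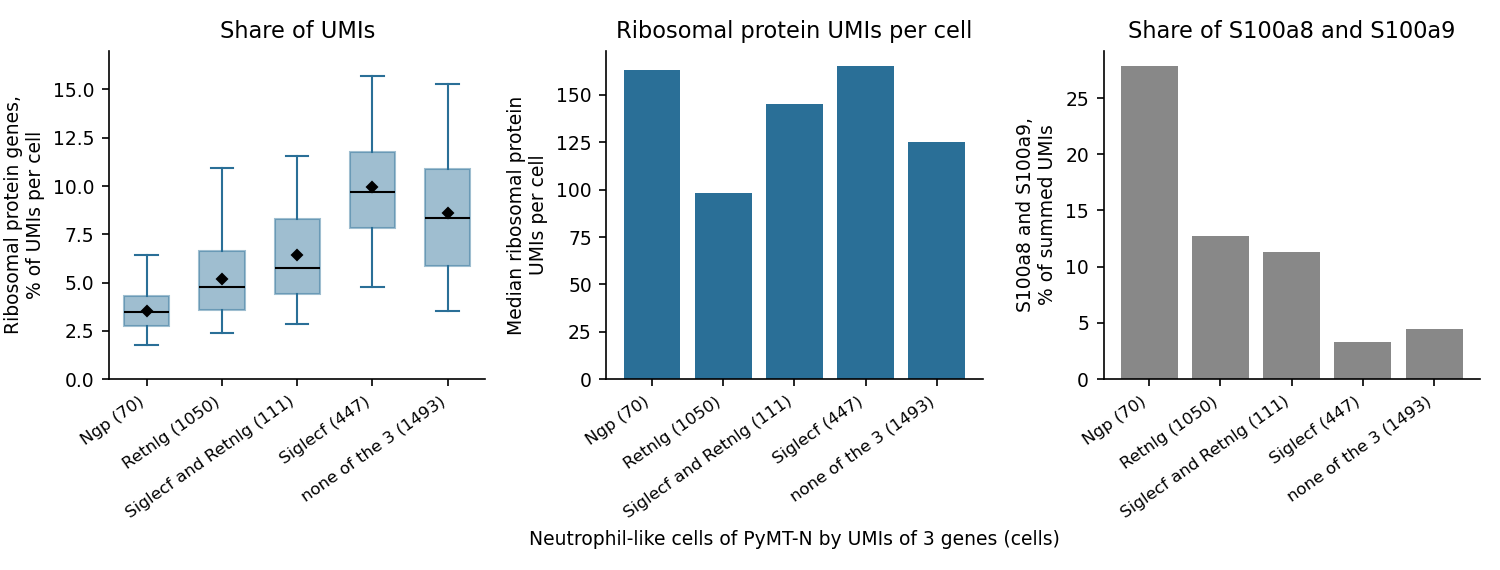
Neutrophil-like cells of PyMT-N by stage: percent of UMIs from ribosomal protein genes per cell (left; boxes are quartiles with the median, whiskers the 5th to 95th percentile, diamonds the share of summed UMIs), median ribosomal protein UMIs per cell (middle) and percent of summed UMIs from S100a8 and S100a9 (right). The share rises from 3.55% at the Ngp stage to 9.96% at the Siglecf stage, while the UMIs per cell are 163 and 165.

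Of 79 members with 100 UMIs over the Ngp and Siglecf stages, 74 were higher at the Siglecf stage by 1.5-fold and 0 lower. Among all 1532 genes 64.4% were higher and 10.1% lower by that fold. The median gene itself was higher by 1.05 on the log2 scale, the members' median was 0.62 above it, and with levels scaled to the median gene 44 members were higher. Against the Retnlg stage 68 of 84 members were higher and 1 lower, beside 42.7% and 13.7% of all 3165 genes, with medians of 1.20 and 0.43. Both comparisons share the Siglecf cells. Rps27l, a paralog of Rps27 known as a p53 target, was at 33.6 CPM (12 UMIs) in Ngp cells, 121 CPM in Retnlg cells and 649 CPM in Siglecf cells. Rps9 stood at 2372, 3256 and 2263 CPM and Rps27a, a ubiquitin fusion gene of the small subunit, at 1843, 2035 and 1815 CPM, so neither had its highest level at the Siglecf stage.

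Few genes of ribosome assembly had enough UMIs for these comparisons. Of 40 biogenesis genes 4 reached 100 UMIs against the Ngp stage and 8 against the Retnlg stage, and a gene that is low in 1 stage passes that limit only if it is high in the other. All 4 and 7 of the 8 were higher at the Siglecf stage, beside the 64.4% and 42.7% of all genes. Nop10, a subunit of the particle that modifies ribosomal RNA, was at 30.8, 101 and 479 CPM in the Ngp, Retnlg and Siglecf stages. Of the 78 mitochondrial ribosome genes 24 and 34 reached the limit, and 23 and 31 of these were higher, led in level by Mrpl52 at 224, 558 and 2486 CPM, and Mrpl33 was lower against the Ngp stage at 921 and 527 CPM. Mxd1 was at 930, 1192 and 283 CPM.

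Of the 6 classes compared between the tumours, macrophage-like cells had the largest difference. The share was 11.3% [11.3 to 11.4] in PyMT-M and 22.2% [22.2 to 22.3] in PyMT-N, a 1.96-fold difference (log2 ratio 0.97), and the median cell held 486 and 943 ribosomal protein UMIs although median totals were alike at 4895.5 and 4615. Single cells overlapped in part, with a 5th to 95th percentile range of 5.95% to 18.5% in PyMT-M and 12.2% to 33.7% in PyMT-N, and 1.47% of PyMT-M cells lay above the PyMT-N median. Of 83 members 71 were higher in PyMT-N by 1.5-fold, 12 lay within that fold and 0 were lower. Among all 9693 genes 8.33% were higher and 21.3% lower by that fold, and the median log2 ratio was 0.84 over the members and -0.18 over all genes. Rpsa was at 1956 (PyMT-M) and 3774 CPM (PyMT-N), Rplp0 at 2676 and 4715 CPM, and Rps19, a small-subunit protein known from Diamond-Blackfan anaemia, at 1760 and 3852 CPM. At a threshold of 2-fold 21 members were higher. Rpl7l1, which takes part in ribosome assembly, was the single member below equality, at 65.4 and 55.3 CPM.

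The macrophage-like cells of the tumours also differed in their C1q genes, which encode a complement component made by mature macrophages. Cells with under 50 C1q UMIs per 10000 were 3.02% of the PyMT-M and 25.9% of the PyMT-N macrophage-like cells, and cells with 300 or more were 43.6% and 3.56%. The share fell as C1q rose in both tumours, from 17.3% to 15.0%, 11.5% and 10.1% over 4 ranges in PyMT-M and from 24.8% to 23.5%, 18.6% and 14.6% in PyMT-N. In each range PyMT-N was higher, by 1.44- to 1.61-fold. With the PyMT-N ranges weighted as in PyMT-M, its share was 17.4% and the ratio 1.54-fold (log2 0.62), a calculation chosen after seeing the data. That weighted share lay below the 20.6% of PyMT-N monocyte-like cells, so the order of these classes was then the one seen in PyMT-M. Over 6 ranges of total UMIs the share lay between 10.5% and 12.9% in PyMT-M and between 19.6% and 22.9% in PyMT-N. C1q level and depth were not crossed, and the part of depth in the C1q trend was not tested. Cycling cells had shares like those of the rest, 12.3% and 11.2% in PyMT-M and 21.4% and 22.4% in PyMT-N.

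**Figure D4:**
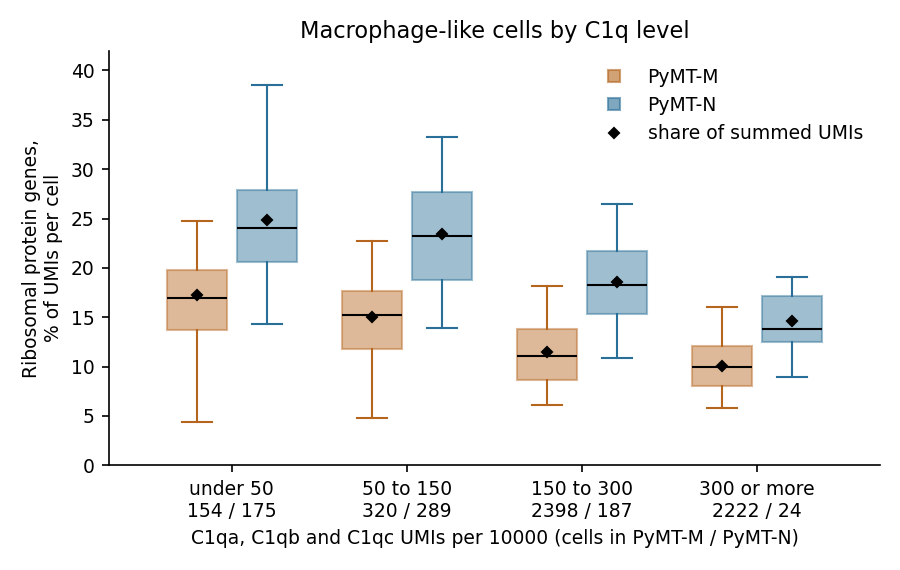
Percent of UMIs from ribosomal protein genes in macrophage-like cells, by the summed UMIs of C1qa, C1qb and C1qc per 10000, PyMT-M (brown) and PyMT-N (blue). Boxes are quartiles with the median, whiskers the 5th to 95th percentile of cells and diamonds the share of summed UMIs. In both tumours the share falls with C1q, and PyMT-N is higher in each of the 4 ranges (24.8% against 17.3% in the lowest, 14.6% against 10.1% in the highest, the latter with 24 PyMT-N cells).

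In the other classes the difference between tumours was smaller. The log2 ratio of shares, PyMT-N over PyMT-M, was 0.26 in monocyte-like, 0.23 in T cell-like, 0.16 in NK cell-like and 0.24 in B cell-like cells. Members higher by 1.5-fold numbered 13 of 83 in monocyte-like (6.24% of all genes), 14 of 83 in T cell-like (7.16%), 15 of 83 in NK cell-like (9.90%) and 12 of 73 in B cell-like cells (13.8%). In these 4 classes 0 were lower, beside 12.4%, 19.0%, 27.3% and 12.8% of all genes. The B cell-like percentages rest on only 218 genes, with the 73 members among them. The members' medians were 0.15, 0.08, 0.01 and 0.06, so most members of these classes lay near equality. In neutrophil-like cells the ratio was 0.55, with 27 of 84 members higher and 1 lower beside 30.5% and 21.2% of all genes. With the 2 members at 0 UMIs set to 3 UMIs, 25 were higher and the members' median was 0.38 in place of 0.39. Stage by stage, PyMT-N over PyMT-M was 1.56-fold among Retnlg cells (20 in PyMT-M) and 1.27-fold among Siglecf cells (only 7 in PyMT-M).

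Among the members with larger ratios several have short messages. Rps28, a small-subunit protein with a transcript of 392 nt, was at 1161 and 5070 CPM in macrophage-like cells of PyMT-M and PyMT-N, 1760 and 4450 CPM in monocyte-like, 2246 and 6160 CPM in T cell-like, 2113 and 5308 CPM in NK cell-like and 2780 and 7409 CPM in B cell-like cells. Rps29 was at 2433 and 6348 CPM and Rpl38, known for its part in the translation of Hox messages, at 1975 and 4218 CPM in T cell-like cells. Across the 83 members transcript length and the log2 ratio had a Spearman correlation of -0.49 in macrophage-like and -0.39 in T cell-like cells, over genes of the same pair of libraries and as a description only.

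Across genes outside the family the same correlation was -0.028 over 9425 genes in macrophage-like and -0.040 over 3913 genes in T cell-like cells. It was -0.041 over 4859 genes in neutrophil-like, -0.117 over 3410 in NK cell-like and -0.213 over 2906 in monocyte-like cells. The members' values in these 3 classes were -0.39, -0.37 and -0.41. In B cell-like cells it was -0.35 over only 143 other genes and -0.33 over 73 members. The shortest genes outside the family had higher ratios than the rest. In macrophage-like cells the median log2 ratio was 0.73 over 54 other genes under 500 nt, 0.30 over 577 genes of 500 to 1000 nt and -0.21 over 6605 genes of 2000 nt or more. In T cell-like cells these medians were 0.19, 0.05 and -0.17. For members of 500 to 1000 nt, the medians were 0.86 in macrophage-like and 0.08 in T cell-like cells. Over the 73 members of 500 nt or longer, the share was 10.1% in PyMT-M and 18.8% in PyMT-N among macrophage-like cells (log2 ratio 0.91), and 25.3% and 28.3% among T cell-like cells (0.16). Lengths are those of 1 principal transcript model a gene, which need not be the one expressed. The library, its preparation and the tumour cannot be told apart with 1 library each.

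**Figure D5:**
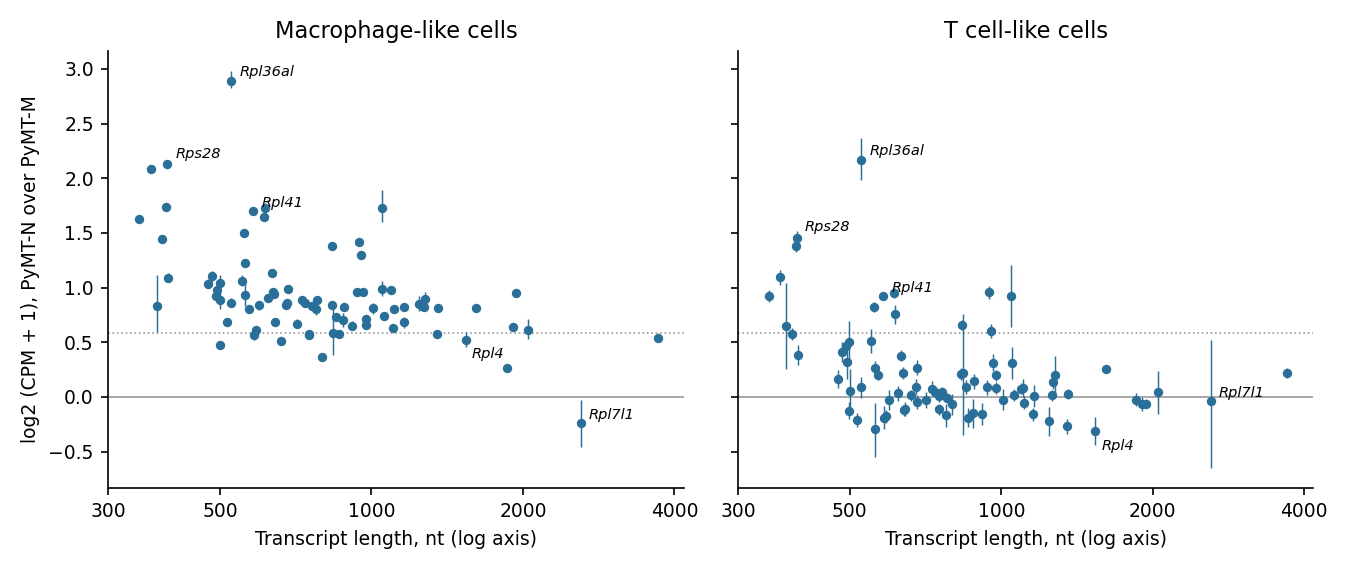
Log2 ratio of level (CPM + 1), PyMT-N over PyMT-M, of 83 ribosomal protein genes against transcript length on a log axis, in macrophage-like (left) and T cell-like cells (right). Bars are 95% counting intervals, the solid line marks equality and the dotted line 1.5-fold. In macrophage-like cells nearly all members lie above equality (median 0.84), while in T cell-like cells most lie near it (median 0.08). There Rpl36al is highest, and some of the shortest members, such as Rps28, come next, though not all short members are high.

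Within 1 library, T cell-like cells had 28.0% against 11.3% in macrophage-like cells of PyMT-M (2.47-fold), with 77 of 83 members higher by 1.5-fold beside 24.3% of all genes. In PyMT-N the shares were 32.8% and 22.2% (1.48-fold), with 36 of 83 members higher beside 19.6% of all genes. No member was lower by that fold in T cell-like cells of either tumour, beside 30.5% of all genes in PyMT-M and 30.8% in PyMT-N. Rpsa was at 8234 against 1956 CPM in PyMT-M and 7890 against 3774 CPM in PyMT-N, and Rps15a at 6908 against 1642 CPM and 6348 against 3151 CPM. For these 2 genes, though not for every member, the levels in T cell-like cells were alike between the tumours and those in macrophage-like cells were not. Rps27l was the lowest member in PyMT-N, at 463 CPM in T cell-like against 681 CPM in macrophage-like cells. Of the 22 other TOP genes 20 were higher in T cell-like cells of PyMT-M and 11 in those of PyMT-N.

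Within T cell-like cells cycling cells had lower shares, 25.2% (92 cells) against 29.1% (482 cells) in PyMT-M and 29.7% (29 cells) against 34.8% (131 cells) in PyMT-N. Their median totals were 8070 and 7091 UMIs against 3780 and 2629 in the non-cycling cells, and median ribosomal protein UMIs were 2011 and 2018 against 1058 and 928. In PyMT-N the 22 cells with a UMI of Foxp3, the regulatory T cell factor, had 24.7%, beside 32.8% over all 160 T cell-like cells. Other T cell subsets and the Foxp3 cells of PyMT-M are not given here. Depth was not matched in these T cell comparisons, and its part in them was not tested.

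The paralogs differed among cell classes. Rps27l gave 1.85% and 1.68% of the Rps27 plus Rps27l UMIs in B cell-like cells of PyMT-M and PyMT-N, 9.38% and 7.19% in T cell-like cells, 19.2% and 15.6% in monocyte-like cells and 26.8% and 19.7% in macrophage-like cells, the same order in both tumours. In 100 epithelial or tumour cell-like cells of PyMT-M, of a kind that the CD45 sort should remove, it gave 73.5% (2361 UMIs against 853), with Rps27l at 2435 CPM and Rps27 at 880 CPM. Those cells had a ribosomal share of 12.9%, and the 7 such cells of PyMT-N had 32.3%. Rpl22l1, a paralog of Rpl22, gave 34.3% and 34.7% of the pair in macrophage-like cells, 30.6% and 36.0% in T cell-like cells and 19.0% (8 of 42 UMIs) and 14.3% in neutrophil-like cells. Rpl36al gave less of its pair with Rpl36a in PyMT-M than in PyMT-N in the 6 classes compared, at 14.8% and 37.8% in macrophage-like, 21.5% and 51.0% in monocyte-like, 9.90% and 27.2% in T cell-like and 10.5% and 32.8% in NK cell-like cells. It had the largest log2 ratio between the tumours in macrophage-, monocyte-, T cell- and NK cell-like cells, 2.89, 2.19, 2.17 and 2.49.

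Rpl3l, which replaces Rpl3 in heart and skeletal muscle, was the 1 member higher by 1.5-fold in neutrophil-like than in macrophage-like cells of PyMT-N, at 35.9 CPM (228 UMIs) against 4.49 CPM (16 UMIs). In T cell-, NK cell- and B cell-like cells it had 0 UMIs in both tumours. Some of these pools were small, with 92101 and 103527 UMIs in B cell-like cells and 183320 in NK cell-like cells of PyMT-N. Monocyte-like cells held 18 Rpl3l UMIs (12.7 CPM) in PyMT-N and 1 in PyMT-M, and dendritic cell-like cells of PyMT-M held 3 (9.79 CPM). Rpl3l ends at position 24736143 of chromosome 17, 499 bases before Msrb1 starts on the same strand. Msrb1, an enzyme that repairs oxidised methionine, was at 2798 CPM in neutrophil-like and 411 CPM in macrophage-like cells. By stage Rpl3l was at 25.2 (9 UMIs), 38.0 and 16.9 (14 UMIs) CPM in Ngp, Retnlg and Siglecf cells and Msrb1 at 2812, 3861 and 1503 CPM. The part of the neighbouring gene in the Rpl3l counts was not tested.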

How the data were processed

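Single cells sorted from 2 mouse mammary tumours were used, 1 library each. Raw UMI counts per gene and barcode were deposited, with no normalisation by the authors, and software version 3.1.0 is named per the file headers. Cell Ranger and Seurat with build mm10 were used per the submitters' processing notes, and their versions and the annotation release are not given in the sources used here. Counts of a symbol with several identifiers were summed. Barcodes under 200 genes or above 10% mitochondrial UMIs were dropped (119 in PyMT-M and 26 in PyMT-N). Scrublet (scanpy 1.11.5) marked 0 doublets by itself, so the top scores up to 0.8% per 1000 barcodes were removed, 441 and 202 cells.

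A cell took the class whose markers it held the largest share of, with at least 3 markers and 5 marker UMIs. A cell with another lineage at 50% of that share or more was called mixed (181 and 101 cells), and 241 and 331 cells stayed unassigned. This scoring rule was set after the files had been seen. UMIs were summed per class and tumour. Ratios are on log2(CPM + 1) for genes with 100 UMIs over both groups, a gene counts as higher or lower at 1.5-fold, and intervals are exact binomial (Clopper-Pearson) or exact conditional at 95%. A count of 0 was set to 3 UMIs where a bound is given. Named members were the 5 of highest summed CPM, up to 6 per direction and comparison by log2 ratio, and all paralogs; from other lists, the 2 of highest CPM and the 2 of largest ratio. Rps19, Msrb1 and values of members repeated across further classes were chosen after they had been seen. Members, lists and markers were chosen with earlier results of these data known. Transcript lengths came from GENCODE vM21 and start sites from RefSeq, both GRCm38. The ratios of single genes and their counting intervals were tested on simulated counts of pooled classes. Those counts held no variation between cells or libraries, so the test does not bear on the class calls or on differences between tumours. Alternatives covered the denominator, transcript length, depth, doublets, filters, thresholds and scaling. Some items, among them a setting with another member list, are not reported here.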

Additional observations from a re-analysis of the deposited data

How the results depend on the processing

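No result was reversed under the alternatives run. Over 12 ratios of shares and 15 alternatives, 136 values were computed, of which 62 stayed within the main value's counting interval. The counting intervals are narrow, so small shifts leave them.

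The log2 ratio of neutrophil- over macrophage-like cells of PyMT-N (-1.64) was -1.67 without mitochondrially encoded genes, -1.44 without the 20 most abundant other genes, -1.54 as a mean of cells, -1.58 in cells of 1000 to 3000 UMIs, -1.64 without doublet removal, -1.67 with marker UMIs doubled, and, in settings chosen after seeing the data, -1.66 without cycling cells, -1.62 without cells with a Ctsk or Mmp12 UMI and -1.72 over members of 500 nt or longer. For T cell- over macrophage-like cells of PyMT-M (1.30) these were 1.12 without abundant genes, 1.31 as a mean of cells, 1.21 at 1000 to 3000 UMIs, 1.28 without doublet removal, 1.32 at a 5% mitochondrial limit, 1.30 with marker UMIs doubled, and 1.37, 1.31 and 1.33 in the 3 added settings. For macrophage-like cells, PyMT-N over PyMT-M (0.97), they were 0.97 without mitochondrially encoded genes, 0.88 without abundant genes, 0.97 as a mean of cells, 0.89 at 1000 to 3000 UMIs, 0.95 without doublet removal, 0.99 at the 5% limit, 0.96 with marker UMIs doubled, 0.99, 0.95 and 0.91 in the added settings and 0.62 at the PyMT-M mix of C1q ranges. For the Siglecf over the Ngp stage (1.49) they were 0.79 without abundant genes, 1.42 as a mean of cells, 1.29 at 1000 to 3000 UMIs, 1.46 without doublet removal, 1.43 with marker UMIs doubled, 1.58 with stage thresholds raised by 1 UMI and 1.34 over members of 500 nt or longer. Other causes of these shifts were not tested.

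Members higher in macrophage-like cells of PyMT-N numbered 21 at 2-fold in place of 71 at 1.5-fold. Members higher at the Siglecf stage numbered 44 in place of 74 when levels were scaled to the median gene. At 1000 to 3000 UMIs the monocyte- and NK cell-like comparisons had under 10 cells in a tumour and gave no value. No paired analysis was possible because there was 1 library per tumour and the labels give no replicate numbers; for the same reason no replicate could be left out. Depth limits the PyMT-M neutrophil-like values most, with 72278 UMIs in 45 cells.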
